A study of Mus musculus with 22 samples.

Results

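The genes described are those of prostaglandin synthesis, signalling and breakdown in mouse loose connective tissue. Of 9 listed genes 8 had an array probe annotated to that gene alone, out of 12393 genes measured in all, and each was read from its probe of highest mean signal over all samples. They are the cyclooxygenase gene Ptgs2, the terminal synthase genes Ptges, Ptgis and Ptgds, the prostaglandin E receptor genes Ptger2, Ptger3 and Ptger4, and the breakdown enzyme gene Hpgd. The listed cyclooxygenase gene Ptgs1 had no such probe and was not analysed here.

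The animals were male C57BL/6 mice of 19 to 24 g, and loose subcutaneous tissue was taken from the trunk, with no genetic alteration or drug named in the labels. Each of 11 animals gave 1 shortened and 1 stretched piece, with the assignment randomised, and the pieces were held in vivo in 7 animals and ex vivo in the other 4, which gave 22 samples. How long and how strongly the tissue was stretched is not stated in the labels. They name neither an unheld piece nor tissue taken directly from the animal, so shortened tissue was the only comparison for stretch in either setting.

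Prostaglandins are lipid signals made from arachidonic acid, which phospholipases release from membranes. A cyclooxygenase turns it into an unstable intermediate, and a terminal synthase turns that into prostaglandin E, prostacyclin, prostaglandin D or another product, each of which acts on receptors of its own. The cyclooxygenase encoded by Ptgs2 is known as the inducible form, with low levels in many resting tissues and a rapid rise after injury, cytokines or mechanical load. In connective tissue fibroblasts prostaglandin E is known to raise cyclic AMP and to restrain contraction and collagen production.

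Sequence before the start of Ptgs2 and Ptges is shown first, because transcripts of these genes differed between in vivo and ex vivo tissue and had lower values in the stretched piece of every ex vivo animal. Sequences are RefSeq's on build GRCm38.p6 and run 5′ to 3′ on the strand of the gene, with letters of searched motifs in capitals. The first is Ptgs2 upstream, chr1:150099781-150100030, plus strand. The second is a short stretch just past the Ptgs2 start, chr1:150100034-150100057, plus strand, and the third is Ptges upstream, chr2:30903298-30903547, minus strand. The Ptges stretch precedes the start in RefSeq's promoter table, which lies inside the annotated span of the gene and not at its outermost end.
Ptgs2 upstream: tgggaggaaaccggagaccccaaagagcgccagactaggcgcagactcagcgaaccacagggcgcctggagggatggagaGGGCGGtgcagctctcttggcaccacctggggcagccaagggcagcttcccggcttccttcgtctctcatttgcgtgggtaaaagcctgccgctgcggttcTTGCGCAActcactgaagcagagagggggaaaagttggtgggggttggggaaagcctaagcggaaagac
Ptgs2 past the start: gtcaccactaCGTCACGTGgagtc
Ptges upstream: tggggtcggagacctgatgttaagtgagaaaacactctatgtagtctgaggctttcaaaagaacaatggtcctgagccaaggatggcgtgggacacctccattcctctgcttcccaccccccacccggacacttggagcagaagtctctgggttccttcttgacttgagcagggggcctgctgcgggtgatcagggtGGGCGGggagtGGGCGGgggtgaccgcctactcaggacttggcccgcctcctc
Capitals in the first sequence mark a GC box (GGGCGG) and a palindromic C/EBP match (TTGCNNAA), and those in the third mark 2 GC boxes. In the short stretch the core of the cyclic AMP response element (CGTCA) overlaps the core of the hypoxia response element (ACGTG), and the latter also matches on the opposite strand.

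A total of 8 motifs were searched on both strands in windows of 300 bases, from 250 before to 50 after the start, in 32544 distinct RefSeq windows. CGTCA occurred in 20.9% of all windows, ACGTG in 19.7%, TTGCNNAA in 10.8%, GGGCGG in 35.9%, the AP-1 motif TGANTCA in 7.79%, TATAAA in 13.6%, CCAAT in 37.4% and the NF-kB motif in 1.61%. Among the 8 listed genes with a window, Ptgs2 was the only one with CGTCA and Ptgds the only one with TGANTCA, and none held the NF-kB motif. GC boxes occurred in the windows of Ptgs2, Ptges, Ptger3, Ptger4 and Hpgd. Ptgis had no entry. A match describes the letters in a window and was not a measurement of binding.

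Values are log2 signals, so a difference of 1 is a doubling, and differences are given ± SE, the standard error of a limma fit over all 22626 tested probes. A difference is called when its p, adjusted by Benjamini-Hochberg over all tested probes, is under 0.05. Stretched and shortened pieces were compared within animals (n = 7 in vivo, n = 4 ex vivo). Sample medians were 7.28 to 7.41 on the in vivo arrays and only 6.85 to 6.90 on those of ex vivo tissue, so every array was centred on its median before the settings were compared. The settings also differ in animals and possibly in processing, which cannot be told apart from the setting itself. Fibroblast markers were high in every sample, with 9 of 10 measured and a centred mean of 12.3 to 12.9 in vivo and 11.5 to 12.1 ex vivo. The Gapdh control signal at the 3' end minus that at the 5' end, a sign of RNA quality, split the in vivo animals. It lay between 0.111 and 0.272 for numbers 1 to 3, between 0.866 and 3.61 for numbers 4 to 7, and between 0.0497 and 0.912 ex vivo. Results are therefore also given for in vivo animals 1 to 3 and 4 to 7 separately. The 2 pieces of an animal could differ as well, which that split does not balance. In vivo animal 7 had 2.96 in the shortened and 0.866 in the stretched piece, and ex vivo animal 1 had 0.139 and 0.912. The part of RNA quality in the stretch differences was not tested. The number of arrays limits the precision.

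The first question was whether stretch altered these transcripts in either setting. None of the 8 genes passed the test in vivo or ex vivo, where 0% of all probes did. At an unadjusted p under 0.05 there was 1 gene in vivo (19.3% of all probes) and 3 ex vivo (11.1%). All pairs of a setting pointed in 1 direction for 1 of 8 genes in vivo (Ptgis), against 5.02% of all probes, and for 5 of 8 ex vivo (Ptgs2, Ptges, Ptgis, Ptger2 and Ptger3), against 20.2%. Fits of in vivo animals 1 to 3 alone and of 4 to 7 alone also called 0 of 8. Median absolute differences of the 8 genes were 0.08 in vivo and 0.30 ex vivo, against 0.07 and 0.10 over all probes. These values for all probes cover dim ones too, and the 8 genes were listed with earlier results of these data known. Of the 5 genes named for ex vivo pairs, Ptger2 was dim. Ptger3 lay near the bottom of the array ex vivo, where its second probe was higher in only 1 of 4 pairs.

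The second question was whether tissue held ex vivo differed from tissue held in vivo. In shortened tissue 6 of 8 genes were called, where 66.5% of all probes were, and in stretched tissue also 6 of 8, where 63.5% were, so these shares lay near the background. In both, Ptgs2, Ptges and Ptgis were higher ex vivo (36.9% and 35.1% of all probes were called higher) and Ptger3, Ptger4 and Hpgd were lower (29.6% and 28.4%). An absolute difference of at least 1 was found for 5 of 8 genes in each, against 22.8% and 21.6% of all probes, and the median absolute difference was 1.29 and 1.36, against 0.49 in both over all probes. Ptger3 is among the 5, though its size was not measured, as given below. All probes include dim ones and ones with no symbol, whereas the 8 genes were read from their probes of highest mean. The genes were also listed with earlier results of these data known. Centred values of the settings did not overlap for Ptgs2, Ptges, Ptgis, Ptger3 and Ptger4 in either piece, against 52.2% and 46.4% of all probes. The values as deposited lower the median difference of all probes from 0.08 to -0.38 in shortened tissue, and the share of called probes that were higher from 55.5% to 23.8%. In stretched tissue they lower the median from 0.06 to -0.38 and the share from 55.3% to 23.3%. These 6 genes kept their directions on the deposited values. Against in vivo animals 1 to 3 alone 5 were called in each piece and against animals 4 to 7 alone 6 were, a comparison chosen after seeing the data, and Hpgd was the one lost (-0.32 and -0.33, adjusted p = 0.273 and 0.235).

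**Figure D1:**
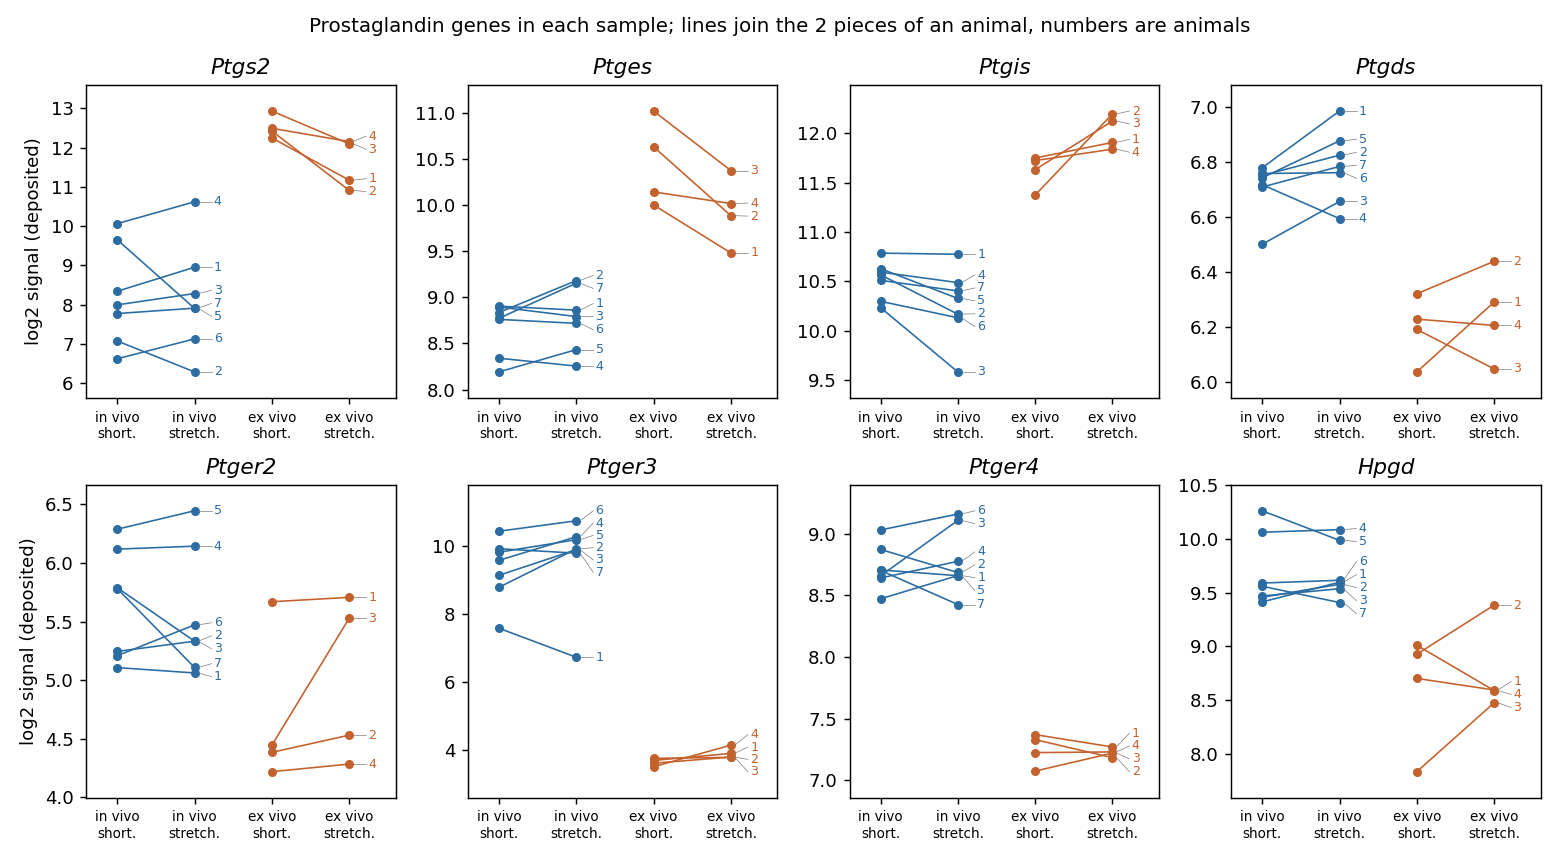
Log2 signal as deposited (vertical axis, scaled per gene) of the 8 genes in each sample, by setting and piece. Lines join the pieces of 1 animal, and numbers are animals, 7 in vivo and 4 ex vivo. Ptgs2 spans 6.28 to 10.62 in vivo against 10.91 to 12.93 ex vivo, and Ptger3 lies at 4.15 or below in all ex vivo pieces.

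Ptgs2, at chr1:150100031-150108234 on GRCm38.p6, encodes the inducible cyclooxygenase, the committed step of prostaglandin synthesis. In vivo its signal ranged from 6.62 to 10.06 in shortened tissue (median 7.99) and from 6.28 to 10.62 in stretched tissue (median 7.91). Ex vivo it was 12.24, 12.42, 12.93 and 12.49 in the shortened pieces of animals 1 to 4, and 11.17, 10.91, 12.09 and 12.15 in the stretched pieces. All 8 ex vivo pieces stood above all 14 in vivo pieces, and the ex vivo pieces ranked at or above 94.6% of the probes of their own array. In vivo tissue spread widely between animals, with animal 4 highest and animals 2 and 6 lowest. Ex vivo tissue was higher than in vivo tissue by 4.77 ± 0.56 in shortened pieces (27.3-fold, adjusted p = 8.42e-06) and by 3.87 ± 0.64 in stretched pieces (14.7-fold, adjusted p = 0.000178).

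Within ex vivo animals Ptgs2 was lower in the stretched piece of 4 of 4, with differences of -1.08, -1.51, -0.84 and -0.34 in animals 1 to 4. The fitted difference was -0.94 ± 0.17 and was not called (adjusted p = 0.352). In vivo the difference was -0.06 ± 0.26 (adjusted p = 0.928). Its in vivo pairs ran from -1.75 in animal 5 to 0.61 in animal 1, with 5 higher and 2 lower. The ex vivo effect minus the in vivo effect was -0.88 ± 0.41 (adjusted p = 0.329), so a difference between the settings in the response was not shown. The order of the groups was ex vivo shortened, ex vivo stretched, then both in vivo groups, and neighbours within a setting did not differ beyond the threshold.

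A second Ptgs2 probe gave fitted differences of the same signs, with larger sizes ex vivo. In vivo 4 of its pairs were higher, against 5 for the first probe, and animal 6 differed by 0.51 on the first and -0.28 on the second. Signals of the second probe correlated with those of the first at r = 0.976 over the 22 samples, of which each animal gave 2. In ex vivo animals 1 to 4 its differences were -2.38, -1.86, -1.78 and -0.69, which fitted -1.67 ± 0.25 (adjusted p = 0.352). Its effect differed between the settings by -1.55 ± 0.35 (adjusted p = 0.0802), and ex vivo tissue exceeded in vivo tissue by 5.54 ± 0.46 in shortened and 3.97 ± 0.57 in stretched pieces.

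Skeletal muscle markers, 10 of 10 measured, differed between the pieces of many animals. Ex vivo their mean differed by -0.70, 0.20, 5.54 and 5.56 (stretched minus shortened) in animals 1 to 4, and in vivo the pair differences reached 6.08 in animal 5 and 4.59 in animal 6. The ex vivo difference of Ptgs2 was larger in animals 1 and 2, with little muscle signal in both pieces, than in animals 3 and 4. Without the pairs whose pieces differed most in muscle signal, namely 5 and 6 in vivo with 3 and 4 ex vivo, it was -1.29 (adjusted p = 0.765). With the muscle mean as a covariate it was -1.25 (adjusted p = 0.573), and neither was called. In vivo the same covariate turned it to 0.50 (adjusted p = 0.769), and leaving out animals 5 and 6 gave 0.16 (adjusted p = 0.734). In vivo animals 3, 4 and 7, whose pieces both had a high muscle mean (10.09 to 13.01 log2 signal), were kept there.

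**Figure D2:**
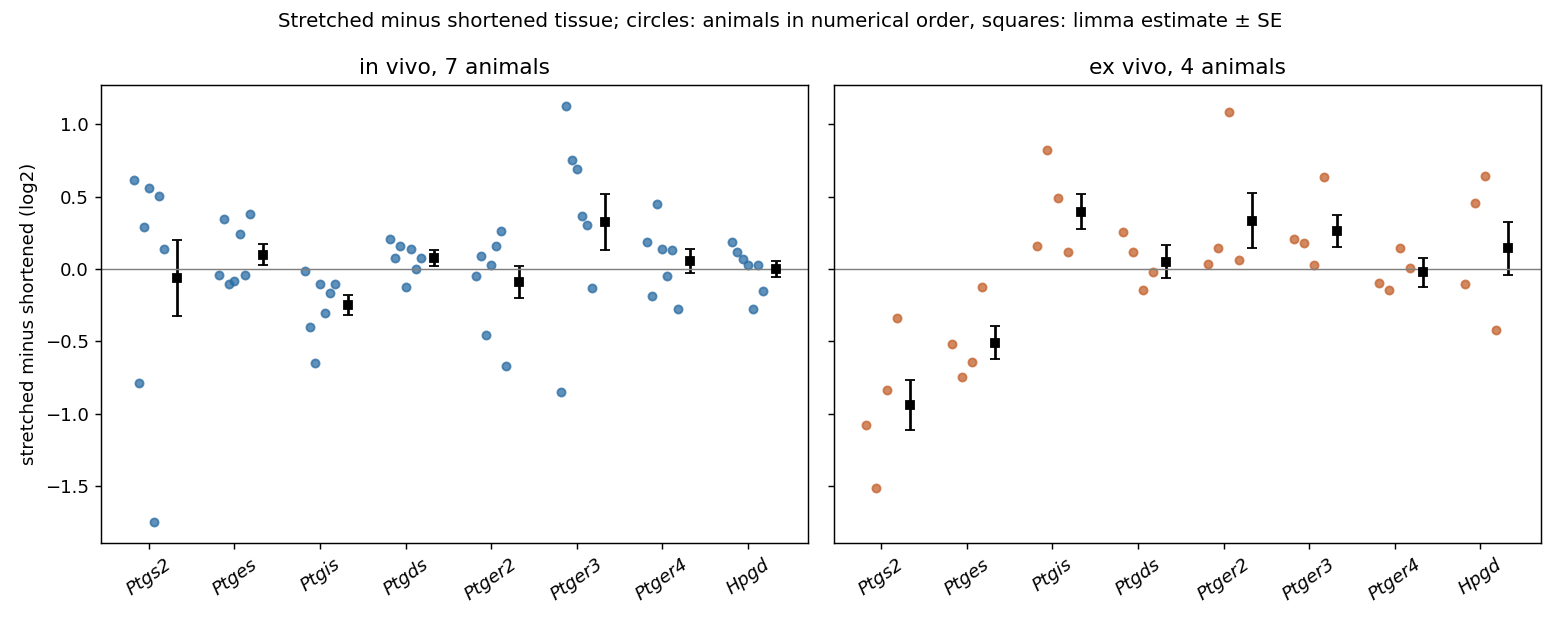
Stretched minus shortened log2 signal of each animal (circles, in numerical order) and the limma estimate ± SE (squares), with 7 animals in vivo on the left and 4 ex vivo on the right. Ex vivo all circles of Ptgs2 and Ptges lie below 0 and all of Ptgis lie above, while in vivo all circles of Ptgis lie below 0.

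Ptges, at chr2:30889471-30931020, encodes the membrane-bound synthase of prostaglandin E that is known to be induced together with the inducible cyclooxygenase. In vivo its signal ranged from 8.19 to 8.90 in shortened tissue (median 8.77) and from 8.26 to 9.18 in stretched tissue (median 8.79). In the ex vivo setting it was 10.0004, 10.63, 11.02 and 10.14 in shortened pieces and 9.48, 9.88, 10.37 and 10.02 in stretched pieces. The settings did not overlap, while the ex vivo pieces overlapped one another. Ex vivo tissue was higher by 2.24 ± 0.19 in shortened pieces (4.72-fold, adjusted p = 5.21e-07) and by 1.61 ± 0.19 in stretched pieces (3.06-fold, adjusted p = 1.16e-05).

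The stretched piece had less Ptges signal in 4 of 4 ex vivo animals, by -0.52, -0.75, -0.64 and -0.13 in animals 1 to 4, and the fitted difference was -0.51 ± 0.11 (adjusted p = 0.352). In vivo it was 0.10 ± 0.07 (adjusted p = 0.494), with 3 pairs higher and 4 lower. These effects differed by -0.61 ± 0.14, which did not pass (adjusted p = 0.0809), but passed without ex vivo animal 4 (-0.74, adjusted p = 0.0236). With 1 animal left out it ran from -0.74 to -0.53 (adjusted p from 0.0236 to 0.290), and without the pairs that differed most in muscle signal it was -0.73 (adjusted p = 0.218). Against in vivo animals 1 to 3 alone it was -0.58 (adjusted p = 0.462) and against 4 to 7 alone -0.63 (adjusted p = 0.405). The other Ptges probe tracked it over the 22 samples (r = 0.957), with an ex vivo difference of -0.49 ± 0.12 (adjusted p = 0.363) and a difference between settings of -0.46 ± 0.15 (adjusted p = 0.174).

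Ptgis, at chr2:167203194-167252150, encodes prostacyclin synthase, whose product relaxes vessels and restrains platelets. In vivo its signal ranged from 10.23 to 10.79 in shortened tissue (median 10.57) and from 9.58 to 10.77 in stretched tissue (median 10.33). The ex vivo values were 11.75, 11.37, 11.63 and 11.72 in shortened pieces and 11.91, 12.20, 12.12 and 11.84 in stretched pieces. Here every stretched ex vivo piece stood above every shortened one. How many of all probes were split in this way was not counted, and the stretch difference was not called. Ex vivo tissue was higher by 1.56 ± 0.11 in shortened pieces (2.96-fold, adjusted p = 1.07e-07) and by 2.19 ± 0.19 in stretched pieces (4.57-fold, adjusted p = 6.80e-07).

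The pairs of Ptgis ran in opposite directions in the settings. In vivo the stretched piece was lower in 7 of 7 animals, by -0.01 to -0.65, and the fitted difference was -0.25 ± 0.07 (adjusted p = 0.172). Ex vivo it was higher in 4 of 4 animals, by 0.16, 0.82, 0.49 and 0.12, and the fitted difference was 0.40 ± 0.12 (adjusted p = 0.386). The difference between these effects was 0.65 ± 0.15 (adjusted p = 0.0809). It passed without ex vivo animal 1 (0.73, adjusted p = 0.0341), without ex vivo animal 4 (0.74, adjusted p = 0.0403) and with array weights (0.68, adjusted p = 0.0416), and was 0.65 with the muscle mean as a covariate (adjusted p = 0.0969). With 1 animal left out it ran from 0.50 to 0.74 (adjusted p from 0.0341 to 0.284), and without the pairs that differed most in muscle signal it was 0.75 (adjusted p = 0.276). Against in vivo animals 1 to 3 alone it was 0.75 (adjusted p = 0.462) and against 4 to 7 alone 0.57 (adjusted p = 0.405). Over all probes 0.177% were called in this comparison and 0 of the 8 genes were, and at an unadjusted p under 0.05 there were 15.3% of all probes and 2 of the 8 genes. With the muscle mean as a covariate the stretch difference of Ptgis was -0.22 in vivo (adjusted p = 0.769) and 0.46 ex vivo (adjusted p = 0.584). The fibroblast marker mean was also lower in every in vivo stretched piece, by -0.07 to -0.42. Ex vivo that mean differed by -0.10, 0.41, -0.05 and -0.26 in animals 1 to 4, and its part in the Ptgis differences was not tested. In vivo and ex vivo values of Ptgis rest on 1 probe.

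Ptgds, at chr2:25466709-25470110, encodes the lipocalin-type synthase of prostaglandin D. Its signal was moderate to low and narrow, from 6.5 to 6.98 in vivo, against 6.04 to 6.44 ex vivo. Stretch differences were 0.07 ± 0.06 in vivo (adjusted p = 0.508) and 0.05 ± 0.11 ex vivo (adjusted p = 0.900). After centring, ex vivo tissue differed from in vivo tissue by -0.05 ± 0.10 in shortened (adjusted p = 0.668) and -0.09 ± 0.11 in stretched pieces (adjusted p = 0.496). Its probes disagreed (r = -0.416 over the 22 samples). The dimmer one, between 4.12 and 4.88 in all samples, was called higher ex vivo after centring, by 0.89 ± 0.11 and 0.56 ± 0.12. Without centring, the brighter one was called lower by -0.51 and -0.54. The median difference of all probes was then -0.38 in both pieces, so those calls include the lower level of the ex vivo arrays. No direction can be given for this gene.

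**Figure D3:**
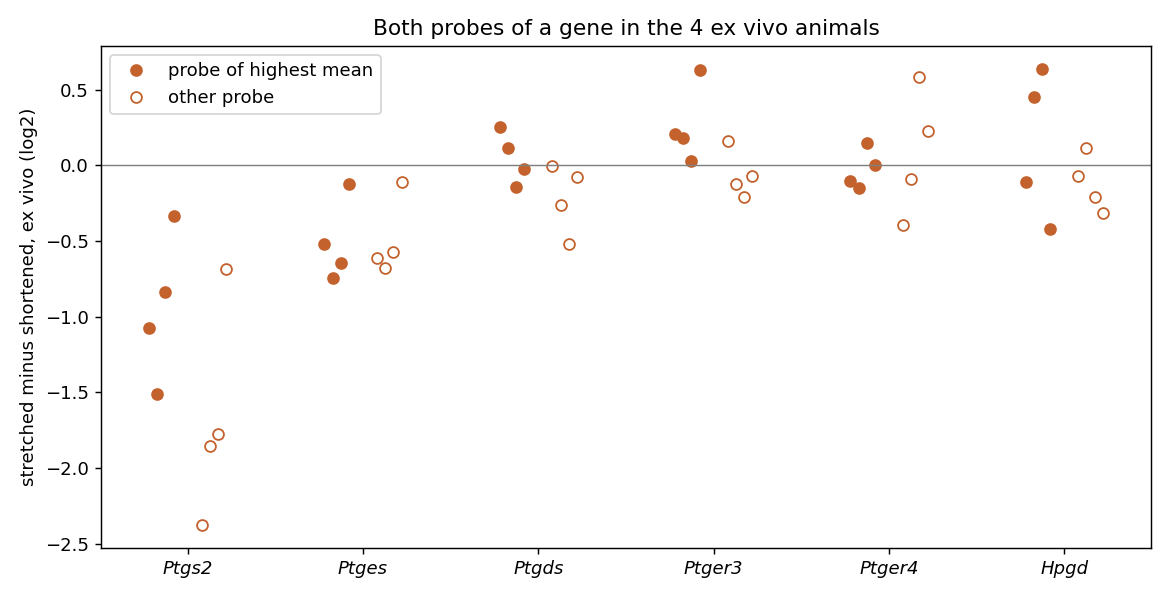
Stretched minus shortened log2 signal of the 4 ex vivo animals for the 6 genes with a second probe, with filled circles for the probe of highest mean and open circles for the other. Both probes of Ptgs2 and both of Ptges lie below 0 in all animals, and for each of the other 4 genes circles lie on both sides of 0.

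The receptors for prostaglandin E differ in signalling. The products of Ptger2 and Ptger4 are known to raise cyclic AMP, and that of Ptger3 mainly to lower it. Ptger3, at chr3:157566821-157644758, is known for high levels in fat tissue. Its in vivo signal ranged from 7.58 to 10.43 in shortened tissue (median 9.58) and from 6.73 to 10.74 in stretched tissue (median 9.91). Signals ex vivo were 3.70, 3.62, 3.76 and 3.52 in shortened pieces and 3.91, 3.80, 3.79 and 4.15 in stretched pieces. Ex vivo values lay near the bottom of the array, between the 10.7 and 18.2 percentile of probes, where signal and background could not be told apart, so the direction was measured and the size of the difference was not. Fitted signals were lower ex vivo by -5.21 ± 0.43 in shortened pieces (adjusted p = 2.87e-07) and by -5.29 ± 0.58 in stretched pieces (adjusted p = 5.75e-06). These were bulk samples, in which fewer cells of a type and less RNA per cell cannot be told apart.

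Stretch differences of Ptger3 were 0.32 ± 0.19 in vivo (adjusted p = 0.387), with 5 of 7 pairs higher, and 0.26 ± 0.11 ex vivo (adjusted p = 0.458), with 4 of 4 higher among values near the bottom of the array. In vivo animal 1 stood below the other animals in both pieces, at 7.58 and 6.73, and without it the in vivo difference was 0.52 (adjusted p = 0.0839). A dimmer Ptger3 probe, at 3.95 to 5.09 in vivo and 2.79 to 3.14 ex vivo, was also called lower ex vivo, by -0.76 ± 0.11 and -1.17 ± 0.18. Its stretch differences were 0.33 ± 0.13 in vivo (adjusted p = 0.219), with 5 of 7 pairs higher, and -0.06 ± 0.08 ex vivo (adjusted p = 0.819), with 1 of 4 higher. With the mean of both probes the differences were -2.98 and -3.22, so the direction held and the size depended on the probe.

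Adipocyte markers were, like Ptger3, lower ex vivo than in vivo. Of 8 listed, 6 were measured, and 5 of them were called lower ex vivo in each piece, among them the fat droplet gene Cidec (-2.66 ± 0.60 and -3.08 ± 0.68) and the lipase gene Lipe (-1.97 ± 0.33 and -2.47 ± 0.53). Their centred mean ranged from 8.59 to 11.5 in shortened and from 8.001 to 11.8 in stretched tissue in vivo, with animal 1 lowest in both, and from 7.58 to 9.66 and from 8.09 to 9.002 ex vivo. Their part in the Ptger3 difference was not tested. Macrophage markers were lower ex vivo as well, 9 of 10 in each piece, with Cd68 called higher in stretched pieces, and so were 7 of 9 fibroblast markers, with Pdgfra called higher in both. Beside these counts and those of the adipocyte markers, 29.6% and 28.4% of all probes were called lower in shortened and stretched pieces. Skeletal muscle markers were called in neither piece (0 of 10), where 66.5% and 63.5% of all probes were called in either direction.

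Ptger4, at chr15:5233399-5244187, was at 8.47 to 9.03 in shortened (median 8.70) and 8.43 to 9.16 in stretched tissue (median 8.69) in vivo. In ex vivo animals 1 to 4 it was 7.37, 7.33, 7.07 and 7.22 in shortened pieces and 7.27, 7.18, 7.22 and 7.23 in stretched pieces, so the settings did not overlap. It was lower ex vivo by -1.02 ± 0.11 (2.02-fold lower, adjusted p = 5.48e-06) and -1.11 ± 0.14 (2.16-fold lower, adjusted p = 1.54e-05), and its second probe by -1.76 ± 0.16 and -1.61 ± 0.19. Ex vivo the second probe lay at 2.87 to 3.45, near the bottom of the array, so it gave the direction and not the size. Stretch differences of the brighter probe were 0.06 ± 0.08 in vivo (adjusted p = 0.751) and -0.02 ± 0.10 ex vivo (adjusted p = 0.953).

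Ptger2, at chr14:44988111-45003820, was dim, at 5.11 to 6.29 in shortened and 5.06 to 6.45 in stretched tissue in vivo. Ex vivo it was 5.67, 4.39, 4.45 and 4.22 in shortened pieces and 5.71, 4.53, 5.53 and 4.29 in stretched pieces, so animal 1 was high in both and animal 3 in the stretched piece only. Stretch differences were -0.09 ± 0.11 in vivo (adjusted p = 0.698) and 0.33 ± 0.19 ex vivo (adjusted p = 0.563), the latter with pairs of 0.04, 0.15, 1.08 and 0.07. Ex vivo tissue differed from in vivo tissue by -0.51 ± 0.30 in shortened pieces (adjusted p = 0.148) and by -0.10 ± 0.33 in stretched pieces (adjusted p = 0.805). Without ex vivo animal 1 the difference in shortened pieces was -0.83 and was called (adjusted p = 0.0145), as it was with array weights (-0.94, adjusted p = 0.00541) and on the deposited values (-0.97, adjusted p = 0.011). The last includes the lower level of the ex vivo arrays, with a median difference of -0.38 over all probes. Ex vivo shortened pieces lay between the 18.5 and 36.0 percentile of probes, the lowest of them near the bottom of the array.

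Hpgd, at chr8:56294552-56321046, encodes the dehydrogenase that inactivates prostaglandins. In vivo its signal ranged from 9.41 to 10.26 in shortened (median 9.56) and from 9.41 to 10.08 in stretched tissue (median 9.60), and ex vivo it was 8.70, 8.93, 7.84 and 9.01 in shortened pieces and 8.59, 9.38, 8.48 and 8.59 in stretched pieces. It was called lower ex vivo by -0.61 ± 0.23 in shortened (adjusted p = 0.0363) and -0.48 ± 0.19 in stretched pieces (adjusted p = 0.0399), with overlapping centred values. In shortened pieces the call was lost without in vivo animal 4 (adjusted p = 0.0649) or 5 (0.0617) or ex vivo animal 1 (0.0626) or 3 (-0.35, 0.149). In stretched pieces it was lost without in vivo animal 4 (0.0689), 5 (0.0723) or 6 (0.0559) or ex vivo animal 1 (0.102), 3 (0.133) or 4 (0.106). The shortened call was also lost for the mean of probes (-0.54, adjusted p = 0.126) and with the muscle mean as a covariate (-0.53, adjusted p = 0.0918). A second Hpgd probe was called in neither piece (-0.49 ± 0.43, adjusted p = 0.332, and -0.65 ± 0.29, adjusted p = 0.0645). Without the pairs that differed most in muscle signal the differences were -0.32 (adjusted p = 0.242) and -0.19 (adjusted p = 0.584). Stretch differences were near 0, at -0.00 ± 0.06 in vivo (adjusted p = 0.997) and 0.14 ± 0.18 ex vivo (adjusted p = 0.810).

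**Figure D4:**
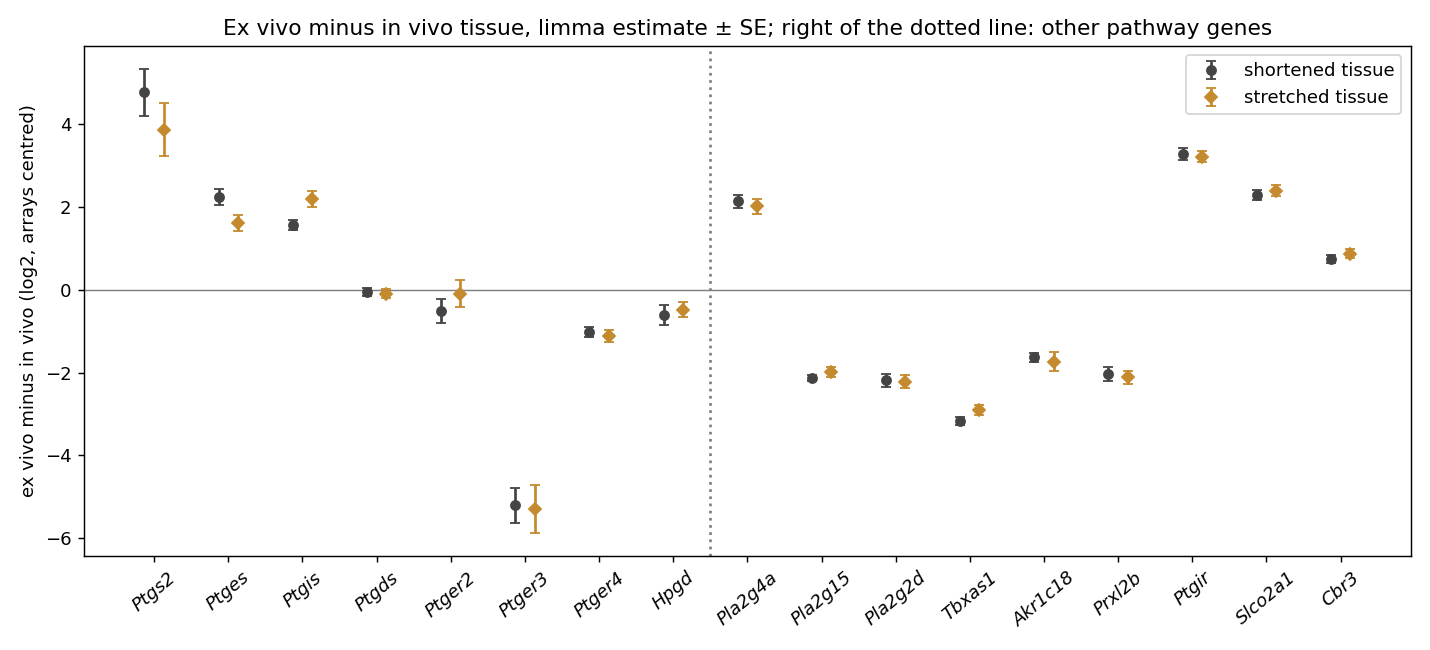
Ex vivo minus in vivo log2 difference after centring each array on its median (limma estimate ± SE, 4 against 7 animals), for shortened pieces (circles) and stretched pieces (diamonds). The 8 genes are left of the dotted line, from Ptgs2 at 4.77 and 3.87 to Ptger3 at -5.21 and -5.29, whose ex vivo signals lie near the bottom of the array so that its size is not measured. Other pathway genes are on the right.

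Of 36 other genes of the pathway, 28 were measured. None was called for stretch in either setting or for the difference between the settings. At an unadjusted p under 0.05 there were 12 of 28 in vivo (19.3% of all probes) and 4 of 28 ex vivo (11.1%). For the difference between the settings there were 4 of 28 (15.3%). Values of smallest p in vivo were those of the calcium-independent phospholipase gene Pla2g6 (0.49 ± 0.12, adjusted p = 0.172, higher in 7 of 7 animals) and the aldo-keto reductase gene Akr1c18 (-0.42 ± 0.12, adjusted p = 0.172, lower in 6 of 7). Ex vivo they were again Akr1c18 (-0.50 ± 0.13, adjusted p = 0.363, lower in 4 of 4) and the prostaglandin F receptor gene Ptgfr (0.54 ± 0.15, adjusted p = 0.363, higher in 4 of 4). For the difference between settings they were the secreted phospholipase gene Pla2g12a (-0.42 ± 0.11, adjusted p = 0.107) and Pla2g6 (-0.76 ± 0.21, adjusted p = 0.124).

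Between the settings, 22 of the 28 were called in shortened pieces, 11 higher and 11 lower ex vivo, and 20 in stretched pieces, 9 higher and 11 lower, beside 66.5% and 63.5% of all probes. Higher ex vivo in both pieces were the prostacyclin receptor gene Ptgir (3.28 ± 0.15 and 3.22 ± 0.13), the prostaglandin transporter gene Slco2a1 (2.29 ± 0.11 and 2.40 ± 0.13), the cytosolic phospholipase gene Pla2g4a (2.14 ± 0.16 and 2.02 ± 0.18), whose product releases arachidonic acid, and the carbonyl reductase gene Cbr3 (0.75 ± 0.09 and 0.88 ± 0.11). Lower in both were the thromboxane synthase gene Tbxas1 (-3.16 ± 0.10 and -2.90 ± 0.13), the lysosomal phospholipase gene Pla2g15 (-2.13 ± 0.08 and -1.99 ± 0.11), the secreted phospholipase gene Pla2g2d (-2.18 ± 0.16 and -2.22 ± 0.16), Akr1c18 (-1.64 ± 0.12 and -1.73 ± 0.24) and the prostamide and prostaglandin F synthase gene Prxl2b (-2.03 ± 0.18 and -2.12 ± 0.15). In shortened pieces Ptgir signal was 5.53 to 6.18 in vivo and 8.47 to 8.68 ex vivo. Of the 6 measured terminal synthases outside the 8 genes, 5 were called lower ex vivo in each piece and 0 higher, where 29.6% and 28.4% of all probes were called lower. Tbxas1 is also known as a gene of macrophages, whose markers were lower ex vivo as given above, and the part of those cells was not tested.

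Genes known to respond to cyclic AMP, 9 of 11 measured, were called in 7 cases in shortened pieces, 5 higher and 2 lower, and in 8 cases in stretched pieces, 5 higher and 3 lower, beside 66.5% and 63.5% of all probes. Higher in both, named after their values were seen, were Nr4a2 (1.79 ± 0.23 and 1.79 ± 0.16), Crem (1.27 ± 0.16 and 1.00 ± 0.11), Pde4b, Pde10a and Sik1. Rgs2 (-0.76 ± 0.22 and -1.27 ± 0.18) and Nr4a3 (-0.80 ± 0.12 and -0.85 ± 0.13) were lower in both, and Per1 in stretched pieces. In the lipoxygenase branch, which makes leukotrienes from the same arachidonic acid, 8 of 9 measured genes (10 listed) were called in each piece, 6 lower and 2 higher, against the same background. Lower examples, named the same way, were the leukotriene receptor gene Cysltr1 (-2.24 ± 0.17 and -2.02 ± 0.20) and the leukotriene synthase gene Ltc4s (-2.14 ± 0.33 and -2.11 ± 0.31), and Alox12b and Alox8 were the ones higher.

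The genes most like each of the 8 were found by Pearson correlation over the 22 samples after removing each setting's mean, among 8501 other genes with a mean signal of at least 6 (8502 for Ptger2). These are descriptions across samples of which each animal gave 2. For Ptgs2 they were Ier3 (r = 0.894), an immediate early response gene, Pnrc1 (0.890) and Clk1 (0.871). For Ptger3 they were Axin2 (0.961), Prkd1 (0.950) and Rgcc (0.950), and for Ptgis Fstl1 (0.888), Marcks (0.888) and Ccl11 (0.887). Lower values were found for Ptges, with Ppme1 (0.776) first, and for Ptger4, with Nasp (0.664) first. The first for Ptgds, Ptger2 and Hpgd were Zap70 (0.820), Sspn (0.868) and Arhgap18 (0.801). The r of Ptgds hold for 1 of its 2 probes, which disagreed as given above. Those of Ptger3 rest mainly on in vivo tissue, with standard deviations of 0.93 and 1.32 there, against 0.11 and 0.17 ex vivo.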

How the data were processed

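Arrays of 22 samples were hybridised with biotin-labelled cRNA. Per the submitters' processing notes the authors used RMA and the affy package, with versions not stated, and the deposited values were log2 signals. Samples were grouped by their titles. Of 22690 probes 64 control probes were left out. A total of 20380 probes carried 1 symbol, 691 several and 1555 none, with symbols updated through RefSeq (GRCm38.p6), and a gene was read from its probe of highest mean.

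Stretched minus shortened tissue was fitted per setting in R 4.3.3 by limma 3.58.1 (eBayes with trend) with the animal as a block. The effects were compared in 1 fit of all 22 samples with 11 animal blocks, and the settings in fits of median-centred arrays without a block. The comparisons between settings reuse samples of the stretch comparisons. All tests were two-sided with Benjamini-Hochberg adjustment. Samples of 1 number in a setting were taken as a pair, because the design text says that comparisons were made within the animal. Deviations of samples of 1 number correlated with r of 0.385 to 0.867 in vivo and 0.109 to 0.284 ex vivo. Samples of different numbers were not correlated in this way, so these r do not test the pairing. The fits were tested on simulated data.

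All 8 measured genes are described. Of other pathway genes, up to 4 of smallest p past the threshold per direction are named, or the 2 of smallest p as values where none passed. The 3 most alike genes were found for each gene, of which the first or all 3 are given. Genes and lists were chosen with earlier results of these data known. Alternatives were quantile normalization, centring or not, only probes averaging 6 or more, no trend, robust eBayes, array weights, a threshold of 0.10, mean of probes, no block, muscle as a covariate, the pairs that differed most in muscle signal left out (named in the results), in vivo animals 1 to 3 and 4 to 7 alone, and each animal left out. Setting ex vivo tissue against in vivo animals 1 to 3 or 4 to 7 alone, which differ in the Gapdh signal ratio, was chosen after seeing the data.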

Additional observations from a re-analysis of the deposited data

Results flagged for a closer look

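Of 48 groups of values tested for 1 sample far from the others, 5 held such a sample, and chance gives about 1 in 20 groups. Ptgds was low in the shortened piece of in vivo animal 3, at 6.5. Ptger2 was high in the shortened piece of ex vivo animal 1, at 5.67, and its stretched minus shortened difference was high in ex vivo animal 3, at 1.08. Ptger3 was low in the stretched piece of in vivo animal 1, at 6.73, the animal whose adipocyte marker mean was also lowest. Hpgd was high in the stretched piece of ex vivo animal 2, at 9.38.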

How the results depend on the processing

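No alternative gave a call among the 8 genes for stretch in vivo or ex vivo. Ptgs2, Ptges, Ptgis, Ptger3 and Ptger4 kept direction and call between the settings under all 23 alternatives of each piece. The count of genes called there ranged from 5 to 8 in shortened and from 5 to 7 in stretched pieces, and that of other pathway genes from 17 to 23 and from 15 to 24. For the difference between stretch effects 0 of 8 were called, against 1 with array weights, 2 at a threshold of 0.10 and 0 to 2 when 1 animal was left out. Without the replicate block the counts for stretch stayed at 0, and the adjusted p for that difference was 0.789 for Ptges and 0.483 for Ptgis.

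Several small, uncalled differences turned, and the cause was not tested. In vivo, Hpgd was 0.0138 after quantile normalization, 0.00197 after centring, 0.0123 for the mean of probes, 0.117 with muscle as a covariate, 0.0488 without the pairs that differed most in muscle signal (animals 5 and 6) and 0.124 in animals 1 to 3. Ptgs2 in vivo was 0.50 with the covariate, 0.16 without those pairs and 0.0376 in animals 1 to 3. Ptger4 in vivo was -0.0120 for the mean of probes and -0.0146 in animals 4 to 7. For the mean of probes, Ptgds ex vivo was -0.0818 and Ptger4 ex vivo 0.0289, and the differences of stretch effects were 0.0410 for Ptger4 and -0.00118 for Hpgd. Ptgds between settings was then 0.43 (adjusted p = 0.00123) in shortened and 0.24 (adjusted p = 0.0433) in stretched pieces. Its dimmer probe was at 0.89 and 0.56 in these centred fits, while the brighter one was at -0.05 and -0.09 and was not called. Without the pairs that differed most in muscle signal the Ptgds difference of effects was 0.11, and stretched pieces between settings gave 0.0592 for Ptgds and 0.19 for Ptger2. Against in vivo animals 1 to 3 alone, chosen after seeing the data, Ptgds was 0.0256 in shortened and Ptger2 0.25 in stretched pieces, and against animals 4 to 7 alone the Ptgds difference of effects was 0.0292.

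With 1 animal left out, signs varied for Hpgd ex vivo (-0.0238 to 0.33), in vivo (-0.0313 to 0.0450) and in the difference of effects (-0.0232 to 0.33), and for Ptgds ex vivo (-0.0161 to 0.12), in the difference of effects (-0.0910 to 0.0415) and between settings in shortened pieces (-0.10 to 0.0100). They also varied for Ptger2 in vivo (-0.15 to 0.00505) and between settings in stretched pieces (-0.33 to 0.14), Ptger3 in the difference of effects (-0.26 to 0.0733), Ptger4 ex vivo (-0.0804 to 0.0172) and in vivo (-0.00947 to 0.11), and Ptgs2 in vivo (-0.17 to 0.22).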
